A study of Mus musculus with 9 samples.

Results

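The genes described here encode proteins that bring fatty acids into liver cells or bind them once inside: the membrane transporters Cd36, Slc27a1, Slc27a2 and Slc27a4, the cytosolic fatty acid-binding proteins Fabp1, Fabp2 and Fabp4, and Lpl and Vldlr, which act on lipoproteins. The 9 genes were found by matching the accession of each non-control probe to a mouse gene symbol, and they held 11 of the 55681 probes and 9 of the 20972 symbols on the array. Total liver RNA of male mice at 20 weeks of age was measured on 9 one-colour Agilent arrays, 1 per mouse. STAM mice were C57BL/6J males given a low dose of streptozotocin, a toxin of the insulin-secreting beta cells, as newborns and a high-fat diet from weaning, so that diabetes, fatty liver and later liver tumours develop. STAM-NON mice (n = 3) had no further treatment, STAM-INS mice (n = 3) received insulin glargine, a long-acting insulin analogue, by injection under the skin each day, and Normal mice (n = 3) were C57BL/6J mice kept on normal chow outside the STAM protocol. STAM-NON and Normal therefore differ in toxin, diet and diabetes together, and streptozotocin is itself a mutagen of the liver. The sources used here do not say whether the pieces of liver held tumour. The 3 comparisons were STAM-NON against Normal for the effect of the disease model, STAM-INS against STAM-NON for the effect of insulin within it, and STAM-INS against Normal for what remains different under insulin.

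Fatty acids reach the liver as free acids bound to albumin or inside lipoproteins. Lipoprotein lipase (Lpl) frees them from triglyceride, membrane proteins such as CD36 and the FATP transporters (Slc27 genes) take them up, and fatty acid-binding proteins carry them through the cytosol to oxidation, storage or nuclear receptors. In the healthy adult liver, hepatocytes make Fabp1, Slc27a2 and Slc27a5 in large amounts, whereas Cd36, Lpl and Fabp4 belong chiefly to adipose tissue, muscle, macrophages and endothelium and are low in hepatocytes. Many of these genes are known targets of the peroxisome proliferator-activated receptors (PPARs), nuclear receptors that bind repeats of the half-site AGGTCA.

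The stretches upstream of 3 of the genes are shown, those in which the half-site AGGTCA was found. Of these genes, Cd36 was higher in STAM-NON than in Normal livers, while the hepatocyte genes Slc27a2 and Fabp1 were not. RefSeq promoter windows of the mouse build GRCm38.p6 matched 7 of the 9 genes, with no entry matched for Fabp4 and Lpl. Each line gives the 250 bases before an annotated start, 5′ to 3′ on the gene's strand, at chr5:17835897-17836146 (minus strand) for Cd36, chr2:126552774-126553023 (plus strand) for Slc27a2 and chr6:71199629-71199878 (plus strand) for Fabp1. The Cd36 gene spans 17781690 to 17888959 on chromosome 5, so its window lies inside the gene and not at its 5′ end. Capitals mark the half-site AGGTCA on either strand, which reads TGACCT in all 3 windows.
Cd36: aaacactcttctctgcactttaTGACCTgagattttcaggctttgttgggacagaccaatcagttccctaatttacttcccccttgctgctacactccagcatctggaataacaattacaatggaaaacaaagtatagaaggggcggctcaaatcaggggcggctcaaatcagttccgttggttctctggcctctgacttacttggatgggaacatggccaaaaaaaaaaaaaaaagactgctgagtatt
Slc27a2: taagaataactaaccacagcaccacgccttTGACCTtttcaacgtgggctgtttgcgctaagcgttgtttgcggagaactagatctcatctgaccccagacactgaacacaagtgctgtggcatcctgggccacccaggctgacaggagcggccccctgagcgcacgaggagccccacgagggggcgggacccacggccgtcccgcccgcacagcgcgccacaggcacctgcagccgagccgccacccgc
Fabp1: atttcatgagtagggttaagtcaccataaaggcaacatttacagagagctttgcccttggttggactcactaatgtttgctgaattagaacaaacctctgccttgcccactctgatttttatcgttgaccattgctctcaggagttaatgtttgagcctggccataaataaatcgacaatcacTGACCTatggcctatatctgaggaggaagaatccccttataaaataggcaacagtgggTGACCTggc
The half-site stood 228 to 223 bases before the start in Cd36 and 220 to 215 bases before it in Slc27a2. Fabp1 held 2 copies, at 67 to 62 and 9 to 4 bases before its start. Among all 32851 promoter windows of this length, 14% held the half-site. An exact direct repeat of the half-site with 1 base between, the full form of the PPAR element DR1, was in 0.0335% of them. None of the windows matched to the 9 genes held this exact repeat. Repeats with a mismatch were not searched for, so these windows may still hold a PPAR element. The windows of Slc27a1, Slc27a4, Fabp2 and Vldlr held no copy of the half-site. Fabp1 was also the only one with the letters TATAAA on either strand, which 12.4% of all windows held. These are matches of letters and not measured binding sites.

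Signals were put on a log2 scale and set to 0 at each array's 75th percentile, giving the centred log2 signal used throughout. Levels of different probes were not compared with each other. All 11 probes of the 9 genes were well above background on each of the 9 arrays and were tested. For Lpl and Vldlr, each with 2 probes, the brighter one stands for the gene. Markers of hepatocytes (7 of 7) were well above background on each array, as the tissue label asks. The 3 Normal arrays lay on a separate slide, so that slide and group cannot be told apart in either comparison with Normal. STAM-NON replicates 1 and 3 and STAM-INS replicate 1 had 35176 to 38563 of 59305 spots well above background, against 27411 to 30281 on the other arrays. Over all tested probes, the median difference of STAM-NON against Normal was -0.13 with this scaling and 0.17 with arrays centred on spike-in controls, and that of STAM-INS against STAM-NON was 0.03 and -0.20.

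In untreated STAM livers, Fabp4, Lpl and Cd36 rose 7.19-fold, 3.90-fold and 2.61-fold over Normal livers, and no gene of the group fell past the threshold. Thus 3 of 9 genes passed a limma adjusted p of 0.05, all upward, where 16.1% of all tested probes passed, 6.29% upward. Without adjustment 5 of the 9 had a limma p under 0.05, as did 35.8% of all probes. In 4 of the 9 genes the arrays of STAM-NON and Normal did not overlap, 3 above (Cd36, Fabp4 and Lpl) and 1 below (Slc27a2), a separation that 41.2% of all tested probes showed. The median difference of the 9 genes was 0.38, beside the median of -0.13 over all probes. With insulin, none of the 9 genes passed against STAM-NON in limma, where 0.0913% of all probes did, and 2 genes, Slc27a1 and Vldlr, had an unadjusted p under 0.05, as did 8.78% of all probes. Between STAM-INS and Normal, 1 of 9 genes, Lpl, rose, where 13.9% of all probes passed, 5.15% upward. Without adjustment 5 of 9 had a limma p under 0.05, against 32.5% of all probes. In that comparison 6 of 9 genes did not overlap, 3 above (Cd36, Fabp4 and Lpl) and 3 below (Slc27a1, Slc27a2 and Fabp1), as did 44% of all probes. In whole tissue, more cells of a type and more RNA per cell cannot be told apart.

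**Figure D1:**
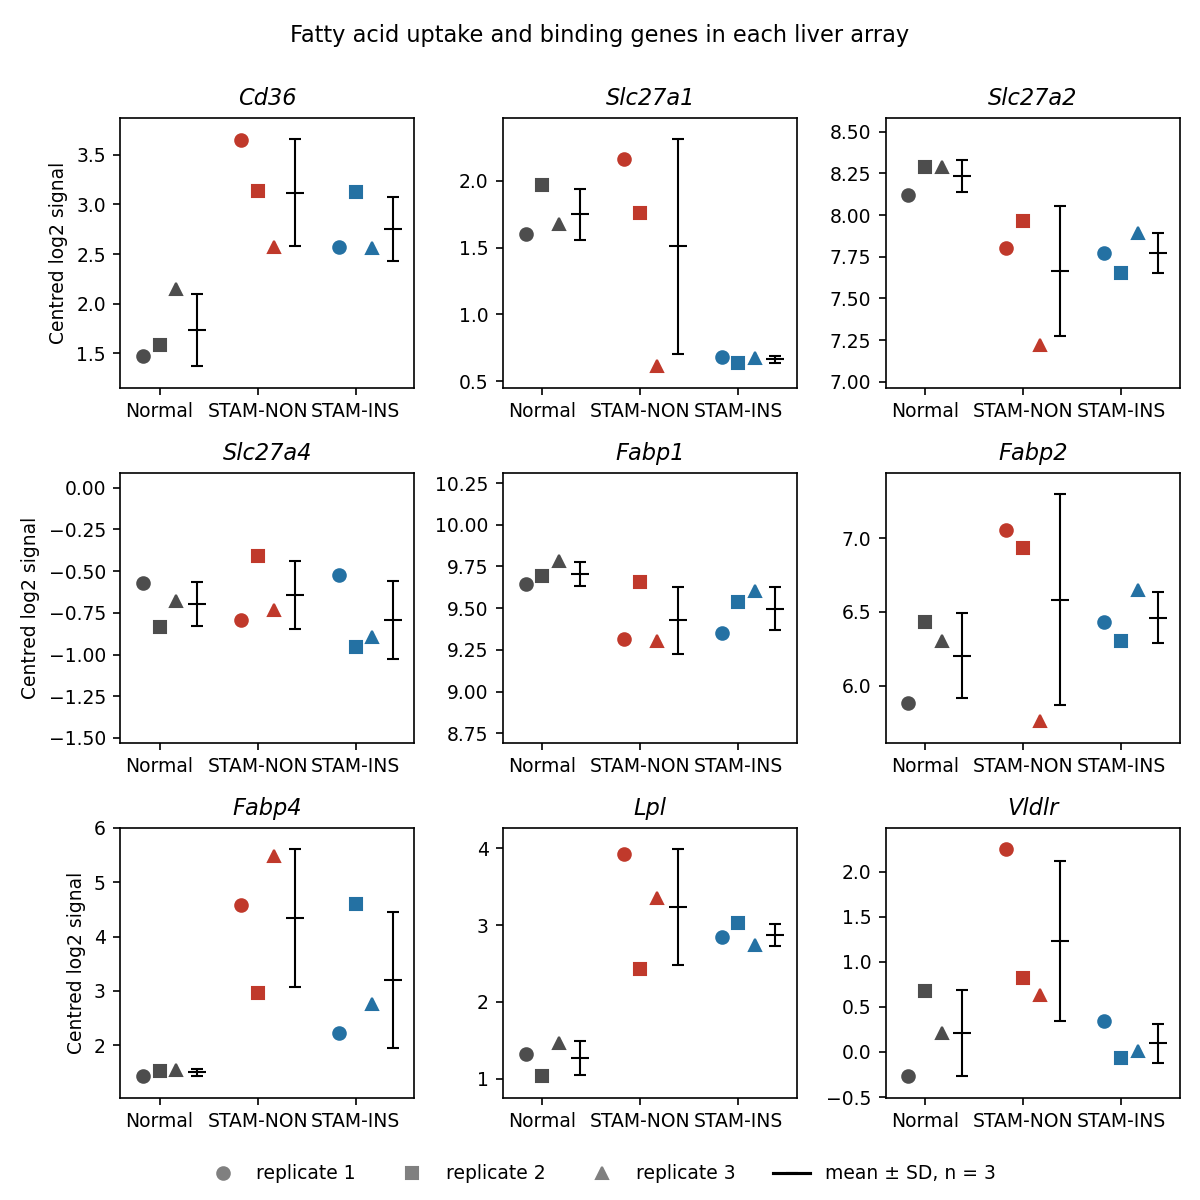
Centred log2 signal (y axis) of the 9 genes on each array, by group (x axis), with 1 symbol shape per replicate number and the mean ± SD (n = 3) beside each group. Each panel has its own scale. The STAM-NON arrays of Cd36, Fabp4 and Lpl all lie above the Normal arrays, and the STAM-INS arrays of Slc27a1 lie between 0.63 and 0.68.

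Among the membrane transporters, Cd36, a scavenger receptor that also takes up long-chain fatty acids, had centred log2 signals of 3.65, 3.14 and 2.57 on the 3 STAM-NON arrays, 2.57, 3.12 and 2.56 on the STAM-INS arrays and 1.47, 1.58 and 2.15 on the Normal arrays. Every STAM array was above every Normal array. The difference of STAM-NON from Normal was 1.38 (SE 0.30, limma adjusted p 0.0243), a 2.61-fold rise with a 95% confidence interval of 1.61 to 4.21. STAM-INS lay 1.02 above Normal (SE 0.30), which missed the threshold with a limma adjusted p of 0.0578 and passed in 8 of 22 alternatives (p from 0.0221 to 0.190, adjusted or not). The insulin-treated and untreated STAM groups differed by -0.36 with an interval of -1.06 to 0.33, and did not pass (limma adjusted p 0.777). The order of the groups was thus STAM-NON, STAM-INS, Normal, and the 2 STAM groups did not differ beyond their spread. The rise over Normal was past the threshold under all 4 other scalings. It was not past it without STAM-NON replicate 1 (limma adjusted p 0.0629), without Normal replicate 1 or 2 (0.0770 and 0.0753), or with the slide row as a block (0.247), in a range of 0.0158 to 0.247 over its 22 alternatives.

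Slc27a1 (FATP1), a transporter best known from muscle and fat, ran differently. Its signal was 2.16, 1.76 and 0.61 in STAM-NON, 0.68, 0.63 and 0.67 in STAM-INS and 1.61, 1.97 and 1.68 in Normal. The 3 insulin-treated livers were close together and below each Normal liver, and STAM-NON replicate 3 was at their level while the other STAM-NON arrays lay among or near the Normal ones. STAM-INS differed from Normal by -1.09 (SE 0.34, limma adjusted p 0.0670), a difference that passed in 7 of 22 alternatives, among them the 2 groups alone (limma adjusted p 0.00509) and without STAM-NON replicate 3 (0.00665), with p from 0.000619 to 0.207 over all of them, adjusted or not. It differed from STAM-NON by -0.85 (SE 0.34, unadjusted p 0.0363, limma adjusted p 0.545). Without STAM-NON replicate 3, the difference between STAM-INS and STAM-NON was -1.30 and past the threshold (limma adjusted p 0.0320), the smallest among its 23 alternatives, which reached 0.9999. Between STAM-NON and Normal the difference was -0.24, with an interval of -1.02 to 0.54. The 2 lower groups in the order Normal, STAM-NON, STAM-INS were set apart by STAM-NON replicates 1 and 2.

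Slc27a2 (FATP2), a hepatocyte transporter that also activates very long-chain fatty acids, was lower on all 6 STAM arrays than on any Normal array. It measured 7.80, 7.97 and 7.22 in STAM-NON, 7.77, 7.66 and 7.89 in STAM-INS and 8.12, 8.29 and 8.29 in Normal. Neither difference from Normal, -0.57 (SE 0.19, limma adjusted p 0.0727) for STAM-NON and -0.46 (SE 0.19, limma adjusted p 0.135) for STAM-INS, passed the threshold. Each of them passed in 3 of 22 alternatives. Over these, the STAM-NON difference ranged from -0.72 to -0.27 (p from 0.0394 to 0.484, adjusted or not). The STAM-INS difference ranged from -0.52 to -0.22 (p from 0.00665 to 0.411, adjusted or not). Insulin-treated and untreated STAM livers differed by 0.11, with an interval of -0.32 to 0.54. Slc27a4 (FATP4), the transporter also found in the intestine, gave overlapping values in the 3 groups, from -0.96 to -0.41 over all arrays. Its largest difference between groups was -0.15, for STAM-INS against STAM-NON, with an interval of -0.52 to 0.22.

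Of the cytosolic binding proteins, Fabp1, the abundant liver form, measured 9.32, 9.66 and 9.30 in STAM-NON, 9.35, 9.54 and 9.60 in STAM-INS and 9.64, 9.69 and 9.78 in Normal. Each of its differences was under 0.30 in size, the largest being -0.28 for STAM-NON against Normal (SE 0.13, limma adjusted p 0.168), with a 95% interval of -0.58 to 0.03. With arrays centred on spike-ins or quantile normalised, that difference was 0.02 and 0.03. Fabp2, the intestinal form, is also made by hepatocytes. It ranged from 5.76 to 7.06 in STAM-NON, from 6.30 to 6.65 in STAM-INS and from 5.88 to 6.43 in Normal, and the groups overlapped in all 3 comparisons. Its difference of STAM-NON from Normal was 0.38 with an interval of -0.37 to 1.13. Of 6 enterocyte markers, 1 to 3 were well above background on an array. Lgals4 was above it on 9 arrays and Vil1 on 5, while Sis and Alpi, which mark the brush border of the intestine, were above it on none. Lgals4, the 1 marker of the list that could be tested, fell by 0.89 in STAM-INS against Normal (limma adjusted p 0.0355).

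Fabp4, the form of adipocytes, macrophages and capillary endothelium, moved the most of the 9 genes. Its centred log2 signal was 1.43, 1.52 and 1.55 in Normal, with an SD of 0.06. In STAM-NON it was 4.58, 2.97 and 5.48, and in STAM-INS 2.22, 4.61 and 2.76. The lowest STAM array was above the highest Normal array, and the STAM arrays spread over more than 3 log2 units. STAM-NON was higher than Normal by 2.85 (SE 0.72, limma adjusted p 0.0344), a 7.19-fold rise with an interval of 2.31 to 22.4. STAM-INS was 1.70 above Normal (SE 0.72, limma adjusted p 0.142), and 1.15 below STAM-NON on the log2 scale with an interval of -2.79 to 0.49 for the difference. The 2 STAM groups overlapped. STAM-INS replicate 2 had the highest value of its group, and without it STAM-INS was 0.99 above Normal (limma adjusted p 0.373) and differed from STAM-NON by -1.85. Without STAM-NON replicate 2, STAM-NON was 3.53 above Normal. The call against Normal was past the threshold under the 4 other scalings and was lost in 11 of 22 alternatives. It was lost without any 1 of STAM-NON replicates 1 and 3, STAM-INS replicate 3 and the 3 Normal arrays (limma adjusted p between 0.0531 and 0.0921), and its range over 22 alternatives was 0.0173 to 0.316. Without the 3 arrays with the most detected spots, an alternative chosen after seeing the data that leaves replicate 2 alone in STAM-NON and takes its spread from the other groups, the difference was 1.47 (limma adjusted p 0.316).

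Lpl, the enzyme that hydrolyses triglyceride in lipoproteins, was the gene whose rise passed in both STAM groups. It measured 3.93, 2.43 and 3.35 in STAM-NON, 2.85, 3.02 and 2.74 in STAM-INS and 1.32, 1.03 and 1.46 in Normal. All 6 STAM arrays lay above the 3 Normal arrays. STAM-NON was higher by 1.96 (SE 0.33, limma adjusted p 0.0129), which is 3.90-fold with an interval of 2.31 to 6.59. STAM-INS was higher by 1.60 (SE 0.33, limma adjusted p 0.0198), which is 3.03-fold with an interval of 1.80 to 5.12. The second Lpl probe gave 2.07 and 1.72, with limma adjusted p of 0.0129 and 0.0186. Insulin-treated and untreated STAM livers differed by -0.36, with an interval of -1.12 to 0.39 (limma adjusted p 0.797). The call was lost in 4 of 23 alternatives for STAM-NON and in 6 of 23 for STAM-INS. No single left-out array ended the call for STAM-NON. Leaving out STAM-INS replicate 2 or 3 or any 1 of the Normal arrays ended the call for STAM-INS (limma adjusted p between 0.0501 and 0.0788, in a range of 0.000438 to 0.0851 over 23 alternatives). Without the 3 arrays with the most detected spots, STAM-NON replicate 2 alone was 1.16 above Normal (limma adjusted p 0.0755, with the spread of the other groups, in a range of 0.00443 to 0.224 over 23 alternatives).

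Vldlr, the receptor that takes up very low-density lipoprotein remnants and is scarce in healthy liver, stood out on 1 array. STAM-NON replicate 1 had a signal of 2.25, and the other STAM-NON arrays had 0.82 and 0.63. The STAM-INS arrays had 0.34, -0.07 and 0.01 and the Normal arrays -0.27, 0.68 and 0.22. Each STAM-NON array was above each STAM-INS array. Vldlr was the 1 gene of the 9 whose arrays did not overlap between these groups, as 12.1% of all tested probes did not. The difference of STAM-INS from STAM-NON was -1.14 (SE 0.42, unadjusted p 0.0251, limma adjusted p 0.515) and that of STAM-NON from Normal 1.03 (SE 0.42, limma adjusted p 0.120). The second Vldlr probe gave -1.09 and 0.73, with overlapping groups in both comparisons. STAM-INS and Normal differed by -0.11, with an interval of -1.07 to 0.84.

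**Figure D2:**
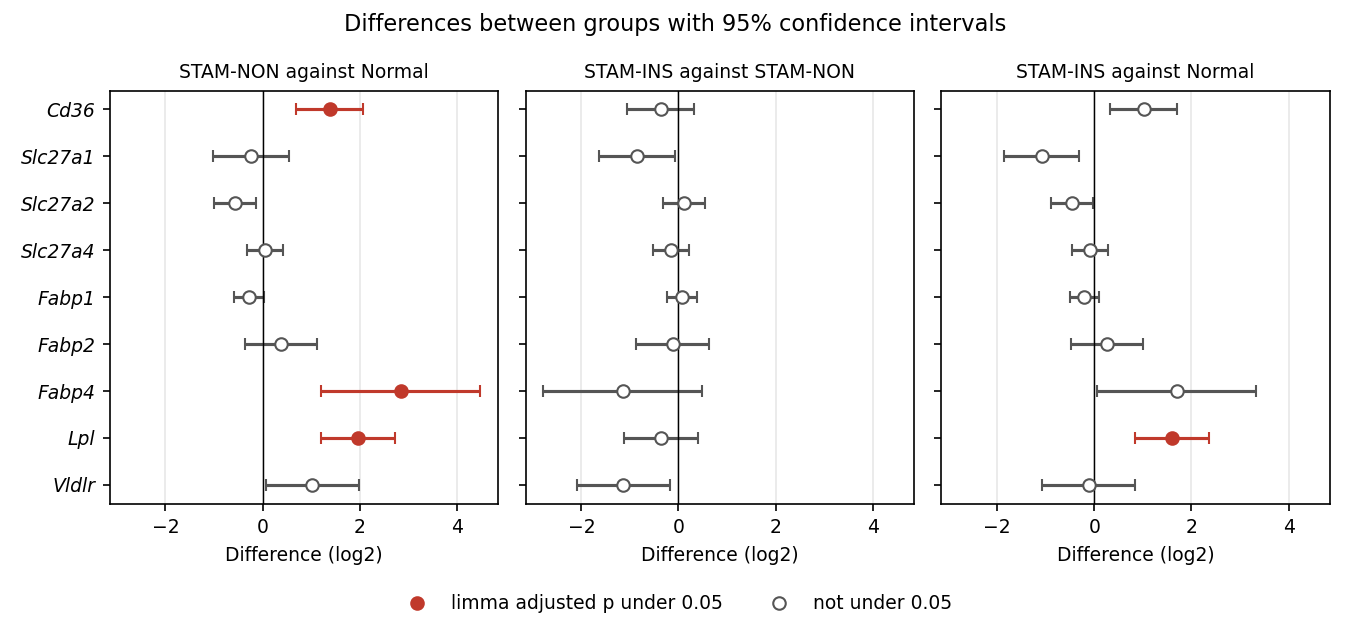
Difference in centred log2 signal (x axis) of each gene (y axis) in the 3 comparisons, with 95% confidence intervals from limma that are not adjusted for the number of probes. Filled points passed a limma adjusted p of 0.05. They are Cd36, Fabp4 and Lpl at 1.38, 2.85 and 1.96 for STAM-NON against Normal, and Lpl at 1.60 for STAM-INS against Normal.

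All 3 STAM-NON arrays and STAM-INS replicate 1 lay in row 1 of their slide, and STAM-INS replicates 2 and 3 and the 3 Normal arrays in row 2. STAM-NON and Normal thus differed wholly in row as well as in slide, and with the row as a block none of the rises of Cd36, Fabp4 and Lpl in STAM-NON passed (limma adjusted p 0.247, 0.199 and 0.224). Row and group could be separated in the STAM-INS group alone. Within row 1, chosen after seeing the data, STAM-INS replicate 1 differed from the STAM-NON mean by -0.54 in Cd36, by -0.83 in Slc27a1, by -2.12 in Fabp4, by -0.39 in Lpl and by -0.89 in Vldlr. The values of the other 4 genes there were 0.11 in Slc27a2, 0.12 in Slc27a4, -0.073 in Fabp1 and -0.15 in Fabp2, and those of Slc27a4 and Fabp1 had the opposite sign to the values over all arrays. With 1 STAM-INS array, these are values without a replicate check. Some arrays were high or low in several of the 9 genes at once. How often this held over all probes was not computed, so an offset of a whole array and a trait of the mouse cannot be told apart. STAM-NON replicate 1 was the highest of its group in 5 genes (Cd36, Fabp2, Lpl, Slc27a1 and Vldlr). STAM-NON replicate 3 was the lowest in 6 (Cd36, Fabp1, Fabp2, Slc27a1, Slc27a2 and Vldlr) and the highest in Fabp4. Normal replicate 1 was the lowest of its group in 7 genes, all but Lpl and Slc27a4. In STAM-INS, replicate 2 was the lowest in 5 genes and the highest in 3 (Cd36, Fabp4 and Lpl). Whether the genes vary together between mice was not tested.

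Fabp4, Cd36 and Lpl are also made by other cells than hepatocytes, so marker lists of those cells were read on the same arrays. Of 10 macrophage markers, 9 had a probe and 8 to 9 were well above background on an array. Their summed linear level was 217, 121 and 239 in STAM-NON, 105, 265 and 157 in STAM-INS and 101, 63.2 and 93.2 in Normal. Fabp4 put the 3 arrays of STAM-NON, and those of STAM-INS, in the same order as this sum did, while in Normal it did not. Of the other genes, Slc27a4 did so in 1 group and the rest, Cd36 and Lpl among them, in none of the 3 groups. With 3 arrays there are few possible orders, so a match says little. The sum weights bright probes such as Csf1r, with 5.59 to 6.33 in STAM-NON, over dim ones such as Trem2, with -0.22 to 1.33. In STAM-NON against Normal 4 of the 9 markers rose, where 16.1% of all probes passed, 6.29% upward. Among them were Trem2 by 2.93 (limma adjusted p 0.0122) and Itgax by 1.77 (limma adjusted p 0.0348), both of which mark lipid-associated macrophages. Clec4f, the marker of Kupffer cells, rose by 0.97 (limma adjusted p 0.0420). The other, Gpnmb, was well above background on no Normal array and on 1 STAM-INS array, so it was tested only because of its level in STAM-NON. Its rise was at least 4.29-fold, and its limma adjusted p of 0.0186 rests on Normal signals that did not exceed background. In STAM-INS against Normal 2 of the 9 markers rose, where 13.9% of all probes passed, 5.15% upward. They were Trem2, by 2.61, and Clec4f, by 0.97 (limma adjusted p 0.0137 and 0.0454). Vsig4, Timd4 and Marco passed in neither comparison with Normal. The part of macrophages in the differences of Fabp4, Cd36 and Lpl was not tested.

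Adipocyte markers were dim. Of the 7 listed, 3 to 6 were well above background on a STAM-NON array, 2 to 5 on a STAM-INS array and 3 on each Normal array. The summed level was 2.23 to 5.18, 1.83 to 3.89 and 1.43 to 2.37 in the 3 groups. Adipoq, which encodes adiponectin, was well above background on 3 of 9 arrays, Plin1 on 1 and Lep on none. The array with the largest adipocyte sum was STAM-NON replicate 1, with 5.18, on which Cd36 and Lpl were at their highest, whereas Fabp4 was highest on STAM-NON replicate 3, where the sum was 2.23. Cd36 put the arrays of STAM-NON and of Normal in the order of the adipocyte sum, Fabp4 those of Normal, and Lpl those of no group. Slc27a1 and Vldlr also followed the sum in 2 of the 3 groups. The sum weights bright probes such as Adrb3, with -0.23, 1.12 and 0.61 on STAM-NON replicates 1, 2 and 3. Single markers differed in their order over the STAM-NON arrays. Adipoq, Retn and Cfd were lowest on replicate 2 and highest on replicate 1, the order of Lpl. Plin1 and Lipe were lowest on replicate 3, and Adrb3 and Lep on replicate 1. Adipoq and Retn were not well above background on replicate 2. The part of adipocytes in the differences of Fabp4, Cd36 and Lpl was not tested. No marker of the list passed in any comparison among the 3 that could be tested (Cfd, Adrb3 and Lipe). Of 8 endothelial markers, all detected on each array, 1 passed in STAM-NON against Normal, where 16.1% of all probes did. It was Lyve1, which rose by 3.01 (limma adjusted p 0.0240). Their summed level was 53.8 to 75.1 in STAM-NON, 38.5 to 74.0 in STAM-INS and 69.0 to 76.8 in Normal. The hepatocyte sum was lower on each STAM array (2075 to 2892) than on any Normal array (3043 to 3201). It weights bright probes such as Alb, with 10.1 to 10.4 in STAM-NON, and was not computed with other scalings. Of the 7 hepatocyte markers, 1 had a higher mean in STAM-NON than in Normal, and 3 had a higher mean in STAM-INS. Of the 7 markers 1 passed, lower, in each STAM group against Normal, near the share of all probes that passed (16.1% for STAM-NON and 13.9% for STAM-INS).

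**Figure D3:**
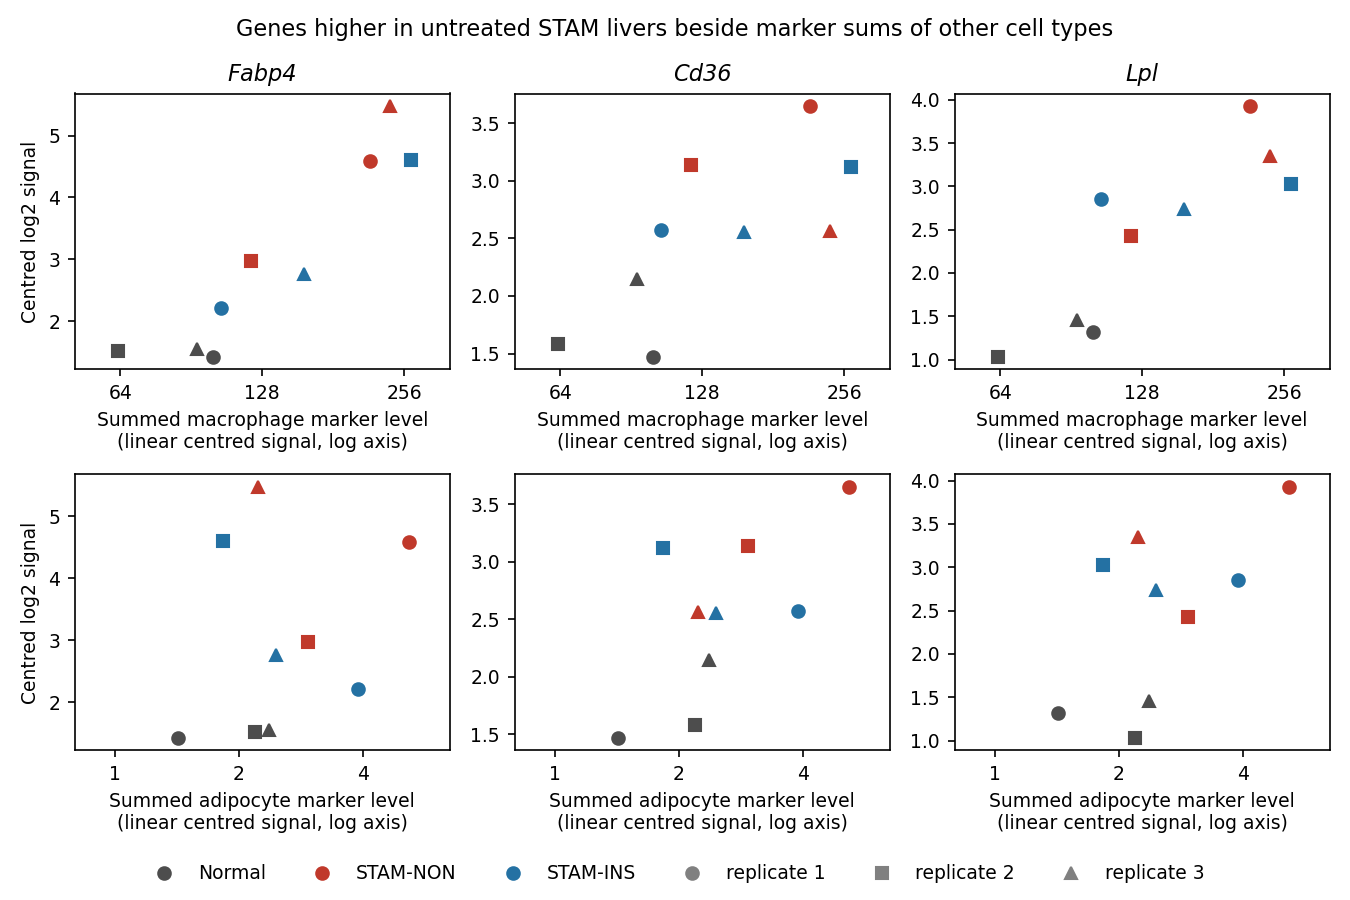
Centred log2 signal of Fabp4, Cd36 and Lpl (y axis) against the summed linear level of 9 macrophage markers (upper row) and 7 adipocyte markers (lower row) on a log2 axis, with 1 point per array, coloured by group. The Normal arrays sit at macrophage sums of 63.2 to 101, and the STAM arrays at 105 to 265.

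The genes around the 9 were read from 4 lists, in which 8, 0 and 9 of 35 tested genes passed in the 3 comparisons, where 16.1%, 0.0913% and 13.9% of all probes did. Of 11 other uptake and activation genes, 8 were tested and Slc27a6, Acsl6 and Cav1 were too dim. Acsl3, an acyl-CoA synthetase of lipid droplets and the endoplasmic reticulum, rose by 0.97 in STAM-NON and 0.95 in STAM-INS over Normal (limma adjusted p 0.0125 and 0.0102). Slc27a3 rose by 0.58 and 0.54 (limma adjusted p 0.0286 and 0.0370). Slc27a5, the bile acid-CoA ligase and hepatocyte transporter, fell by 0.52 in STAM-NON (limma adjusted p 0.0456), and Acsl5 rose by 0.54 in STAM-INS (limma adjusted p 0.0374). Of 22 alternatives, the Slc27a5 call was lost in 17, those of Slc27a3 in 11 and 13, that of Acsl5 in 11 and those of Acsl3 in 4 and 2. The median of the tested genes of this list was -0.10 for STAM-NON and -0.01 for STAM-INS against Normal.

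The other lipid-binding proteins, 6 of 6 tested, had medians of 1.66 and 0.64 against Normal. Fabp6 was not above background in Normal livers, and with Fabp6 at its bound the medians were 0.94 and 0.33. Fabp7, the brain form, rose by 1.33 in STAM-NON (limma adjusted p 0.0460), and Scp2, which carries sterols and fatty acyl-CoA to peroxisomes, fell by 0.52 (limma adjusted p 0.0356). These calls were lost in 14 and 16 of 22 alternatives. Fabp5, the epidermal form that is also made by macrophages, had centred log2 signals of 3.28, 3.57 and 2.76 in Normal, 4.64, 3.69 and 7.23 in STAM-NON and 6.26, 7.67 and 6.78 in STAM-INS. The 3 groups of Fabp5 thus stood in the order STAM-INS, STAM-NON, Normal, where for Fabp4 the STAM-NON mean was the highest. STAM-INS was 3.70 above Normal (SE 0.80, limma adjusted p 0.0233) and STAM-NON 1.98 above it (SE 0.80, limma adjusted p 0.118), while STAM-INS and STAM-NON differed by 1.72 (limma adjusted p 0.583). Leaving out STAM-INS replicate 2 or 3 or any 1 of the Normal arrays ended the Fabp5 call (limma adjusted p between 0.0580 and 0.0901). Probe sequences were not analysed here, so signal from related copies of these genes could not be checked.

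Of 13 genes of lipoprotein lipolysis and receptors, 12 were tested, and those that passed were lower. Hepatic lipase (Lipc), which acts on remnants and HDL, measured 2.11, 2.28 and 2.36 in Normal, 1.11, 1.53 and 1.16 in STAM-NON and 1.81, 1.68 and 1.70 in STAM-INS. It fell by 0.98 in STAM-NON (SE 0.14, limma adjusted p 0.00857) and by 0.52 in STAM-INS (SE 0.14, limma adjusted p 0.0445). The direction was thus opposite to that of Lpl in both STAM groups. Lmf1, needed for the folding of both lipases, fell by 0.55 in STAM-NON (limma adjusted p 0.0376). Angptl4, a secreted inhibitor of Lpl, measured 7.39, 7.36 and 7.54 in Normal, 7.10, 6.87 and 6.26 in STAM-NON and 5.32, 6.49 and 5.96 in STAM-INS. It fell by 1.51 in STAM-INS against Normal (SE 0.31, limma adjusted p 0.0190), and the difference was -0.69 for STAM-NON against Normal (limma adjusted p 0.146) and -0.82 between the STAM groups (limma adjusted p 0.522). Gpihbp1, which holds Lpl on the capillary wall, differed from Normal by 0.63 in STAM-NON and by 0.02 in STAM-INS (limma adjusted p 0.228 and 0.976). The Lmf1 call was lost in 16 of 22 alternatives, those of Lipc in 4 and 12 and that of Angptl4 in 6. The medians of the list were -0.12 and -0.01 against Normal.

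Of 9 transcription factors of lipid handling, all tested, Rxra, the partner of the PPARs and liver X receptors, fell by 0.61 in STAM-NON against Normal (limma adjusted p 0.0219). In STAM-INS against Normal, Ppara, the PPAR of fatty acid oxidation, fell by 0.86 (limma adjusted p 0.0229), Nr1i2 (PXR) fell by 0.61 (limma adjusted p 0.0288) and Ppard rose by 0.74 (limma adjusted p 0.0404). Pparg, the PPAR of adipocytes that has Cd36, Fabp4 and Lpl among its known targets, had 2.31 to 2.54 in Normal, 2.48 to 2.90 in STAM-NON and 2.24 to 2.60 in STAM-INS. Its difference of STAM-NON from Normal was 0.27, with a limma adjusted p of 0.237 and overlapping arrays. Between STAM-INS and STAM-NON, Ppara differed by -0.62 and Pparg by -0.32 (limma adjusted p 0.474 and 0.587). The calls of Rxra, Ppara, Nr1i2 and Ppard were lost in 11, 10, 12 and 12 of 22 alternatives. The list's medians were -0.13 and -0.11 against Normal.

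**Figure D4:**
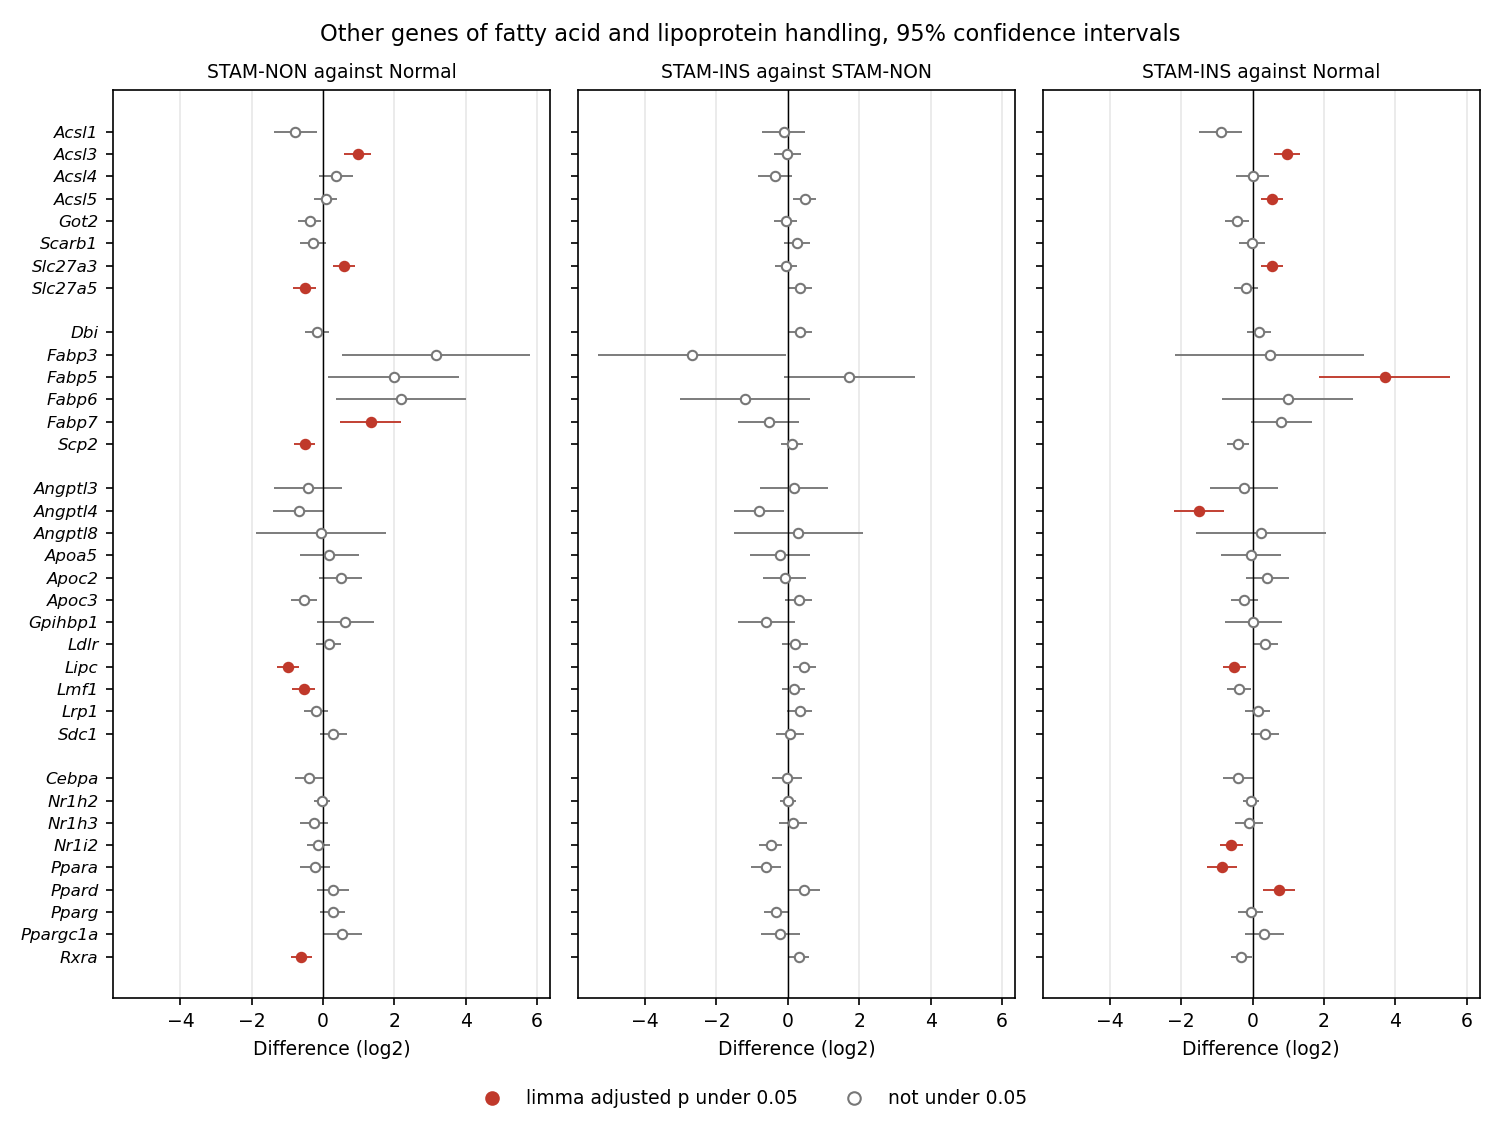
Difference in centred log2 signal (x axis) of the tested genes of the 4 lists (y axis, in blocks from uptake and activation at the top to transcription factors at the bottom) in the 3 comparisons, with 95% confidence intervals from limma. Filled points passed a limma adjusted p of 0.05, which 8, 0 and 9 genes did.

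For each of the 3 genes past the threshold, the profiles most like its own over the 9 arrays were sought among 13384 genes, after subtracting each probe's mean. For Lpl, whose profile had an SD of 0.93, they were Pmaip1, Gdpd1 and Uap1l1, with root mean square differences of 0.16, 0.20 and 0.21. For Cd36, with an SD of 0.68, they were Rad54b, Maged2 and Ly6a, at 0.17, 0.20 and 0.22. For Fabp4, with an SD of 1.44, they were Mest, Slc16a3 and Lyve1, at 0.27, 0.35 and 0.40. Lyve1 is the 1 of the 8 endothelial markers above that passed in STAM-NON against Normal. The median of those 8 markers in that comparison was 0.19, with 5 of them higher. This likeness over 9 arrays is a description without a test.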

How the data were processed

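Liver RNA of 9 male mice was labelled with Cy3 and hybridised to Agilent SurePrint G3 mouse arrays by the authors. The deposited files hold, per the file headers, spot intensity on a linear scale after background subtraction by Feature Extraction 11.5.1.1, not normalised between arrays, with the design built on mm9. No spot was saturated, 161 to 217 spots per array with an outlier flag were left out, and spots of a probe were averaged. Names came from accessions through a RefSeq table of GRCm38.p6, which named 27656 of 55681 probes. Probes were tested where at least 0.5 of their spots were well above background on all 3 arrays of at least 1 group (26291 probes). Groups were taken from the sample labels. Tests used lmFit and eBayes of limma 3.58.1 (R 4.3.3), two-sided, on all 9 arrays with 6 residual degrees of freedom, with Benjamini-Hochberg adjustment over all tested probes and a threshold of 0.05. The study names no normalisation or test for its arrays. The 9 genes and the lists were chosen with earlier results of these data known. Named genes are the 9 genes, each list gene past the threshold (at most 6 per list and comparison), Pparg, Ppara, Angptl4 and Gpihbp1, and the 3 most like profiles. Markers named beyond these were chosen after their values were seen. For a probe below background throughout a group, the fold is a lower bound: the brighter mean over a floor, which on each dim array is the dimmest detected signal or the probe's own, whichever is larger. Spot files lacked the mean signal, so normexp (offset 50) used the median signal. The code was tested on simulated data. The number of arrays limits the precision.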

Additional observations from a re-analysis of the deposited data

How the results depend on the processing

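Over the settings and left-out arrays, 609 values of the 9 genes were recomputed: 533 kept their direction and side of the threshold, 29 lost the threshold, 22 gained it and 25 changed sign, each of the last being a difference that was not past the threshold. Of 598 values of the named list genes, 405 kept both, 178 lost the threshold, 1 gained it and 14 changed sign. The ranges of p over alternatives include the unadjusted p of the methods' t-test. The cause of these changes was not tested. Against Normal, the rises of Cd36, Fabp4 and Lpl in STAM-NON did not pass with no filter on dim probes (limma adjusted p 0.0974, 0.119 and 0.0625) or with the slide row as a block (0.247, 0.199 and 0.224, where the Fabp4 difference was 4.31), and they passed with the other 4 scalings. The alternatives for the lists, the removal of the 3 arrays with the most detected spots and the use of row 1 of slide 1 alone were chosen after seeing the data.

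In STAM-NON against Normal, the count of the 9 genes past the threshold (3 as reported) was 0 with no filter on dim probes, 0 with the slide row as a block, 0 with the methods' t-test after Benjamini-Hochberg and 0 without the 3 arrays, and 1 to 4 with 1 array left out. All probes (4220) gave 250 with no filter, 15 with the slide row, 2472 with only the arrays of the 2 groups, 7534 and 30 with the methods' t-test unadjusted and adjusted, 851 without the 3 arrays and 939 to 5821 with 1 left out. The list genes (8) gave 5 with the detected-probe percentile, 4 with spike-in centring, 4 with quantile normalisation, 3 with the 2 groups, 0 with no filter, the slide row or the adjusted t-test, 1 without the 3 arrays and 2 to 10 with 1 left out. In STAM-INS against STAM-NON, where 0 of the 9 passed, 0 to 1 did with 1 array left out. All probes (24) gave 7 with no filter, 6 over probes detected on all arrays, 13 with the slide row, 8 with the 2 groups, 1498 and 1 with the t-test, 568 without the 3 arrays, 0 in row 1 alone and 10 to 105 with 1 left out. The list genes (0) gave 4 with the unadjusted t-test, 2 without the 3 arrays and 0 to 0 with 1 left out. In STAM-INS against Normal, the 9 genes (1) gave 3 with normexp, 2 with the percentile over detected probes, 0 with no filter, 2 over probes detected on all arrays, 4 with the 2 groups, 2 with trend and robust limma, 4 and 2 with the t-test, 2 without the 3 arrays and 0 to 4 with 1 left out. All probes (3647) gave 1869 with spike-in centring, 571 with no filter, 2158 with the slide row, 8811 with the unadjusted t-test and 1038 to 4321 with 1 left out. The list genes (9) gave 3 with spike-in centring, 0 with no filter, 4 with the slide row, 16 and 4 with the t-test, 5 without the 3 arrays and 1 to 11 with 1 left out.

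The share of higher calls moved with the scaling. In STAM-NON against Normal, 1655 probes were higher and 2565 lower as reported, 2370 and 446 under spike-in centring, 2093 and 1061 with the detected-probe percentile, 1537 and 1426 after quantile normalisation and 1313 and 3389 after normexp. In STAM-INS against Normal these splits were 1355 and 2292, 974 and 895, 1677 and 1299, 1328 and 1758, and 1095 and 2647 in the same order.

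Replicate numbers do not pair mice across groups: deviations of same-numbered arrays correlated at -0.29 to 0.15 over 9 pairs and others at -0.19 to 0.28 over 18. With a replicate block, the probes past the threshold numbered 2016, 6 and 1869 in the 3 comparisons in the order above, the 9 genes 1 in STAM-NON against Normal, and the list genes 2 in STAM-NON against Normal and 2 in STAM-INS against Normal.

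Sign changes of STAM-NON against Normal were 0.032 (quantile) and 0.021 (spike-in) in Fabp1, 0.061 (spike-in) and 0.0094 (without the 3 arrays) in Slc27a1, -0.35 (slide row) in Slc27a4, 0.039 (quantile) and 0.065 (spike-in) in Ppara, and 0.22 (slide row) in Angptl4. Those of STAM-INS against STAM-NON were -0.039 (quantile), -0.15 (spike-in), -0.073 (slide row and row 1 alone) and -0.090 (without the 3 arrays) in Fabp1, -0.11 (spike-in) and -0.19 (without the 3 arrays) in Slc27a2, 0.12 (slide row and row 1 alone) in Slc27a4, and, without the 3 arrays, 0.72 in Fabp4, 0.46 in Lpl and 0.33 in Gpihbp1. Those of STAM-INS against Normal were, with the percentile over detected probes, 0.026 in Slc27a4, 0.0082 in Vldlr and 0.068 in Pparg, and in Pparg also 0.043 (quantile), 0.024 (spike-in) and 0.0075 (slide row and without the 3 arrays). With 1 array left out, values spanned 0 in Slc27a1 (-0.56 to 0.21, the last without STAM-NON replicate 3) and Slc27a4 (-0.066 without STAM-NON replicate 2 to 0.12) for STAM-NON against Normal, in Slc27a2 (-0.11 without STAM-NON replicate 3 to 0.26) and Fabp2 (-0.53 to 0.11 without STAM-NON replicate 1) for STAM-INS against STAM-NON, and in Vldlr (-0.35 to 0.12 without Normal replicate 2), Pparg (-0.17 to 0.0075 without STAM-INS replicate 1) and Gpihbp1 (-0.20 without STAM-INS replicate 2 to 0.42) for STAM-INS against Normal.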
